A study of Mus musculus with 18 samples.

Results

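The PDGF and HGF ligands and receptors are 8 genes: the ligands Pdgfa, Pdgfb, Pdgfc and Pdgfd, their receptors Pdgfra and Pdgfrb, the ligand Hgf and its receptor Met. They are 8 of the 19938 genes that had a transcript cluster of their own on the arrays. The members were chosen by symbol and by mean signal over all arrays, in that the brightest of several transcript clusters stands for a gene. Each of the 8 has 1 transcript cluster, so the signal removed none. The family was taken up knowing that Pdgfd and Hgf were higher in differentiated KK-TAF3 cells, and those 2 differences are therefore given here as descriptions, without a test.

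The 18 Affymetrix mouse arrays carry RNA from 6 groups, 3 arrays a group, of C2C12 cells, a mouse myoblast line that forms myotubes in low serum. In all groups the cells' own TAF3, a TFIID subunit whose PHD finger reads methylated histone H3, had been depleted by a retroviral shRNA and replaced by introduced murine TAF3. KK-TAF3 sh-PIP4K2B cells carry the KK mutant, which lost phosphoinositide binding and kept binding to the histone mark, and a lentiviral shRNA against PIP4K2B, a kinase that consumes nuclear PI5P. WT-TAF3 sh-PIP4K2B cells carry wild-type TAF3 with the same shRNA. WT-TAF3 shX cells carry wild-type TAF3 without PIP4K2B depletion, and the name of their control shRNA, shX, comes from the paper since the array labels name none. Each genotype was either treated with etoposide, a topoisomerase II inhibitor that breaks DNA, at 10 µM for 7 hours, or differentiated for 2 days by the labels, which the design text of the series gives as 3 days. By the study, the 3 arrays per group are biological triplicates of selected, transduced populations, and whether these came from separate transductions is not given in the sources used here, so a p-value measures the spread between these arrays. There is no untreated group, so that in a comparison of the treatments etoposide and the state of differentiation cannot be told apart.

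Within a treatment, no sh-PIP4K2B array reached the Pip4k2b signal of any shX array, Pip4k2b being the target of the shRNA. In WT-TAF3 cells depletion changed it by a log2 value of -0.88 after etoposide (SE 0.10, adjusted p = 3.68e-05). After differentiation the value was -1.14 (SE 0.10, adjusted p = 1.78e-06). KK-TAF3 signals differed from those of shX cells by -0.71 after etoposide and -0.83 after differentiation (limma adjusted p = 0.000253 and 6.09e-05). They were higher than in WT-TAF3 sh-PIP4K2B cells, by 0.17 after etoposide with overlapping arrays (limma adjusted p = 0.411). After differentiation they were higher by 0.31 without overlap, as for 21.0% of all genes (limma adjusted p = 0.255). The part of this gap in the KK-TAF3 comparisons was not tested. Arrays of a group correlated with r between 0.994 and 0.999, and the median of an array lay between 7.25 and 7.46. In differentiated cells the sh-PIP4K2B arrays had lower medians than the shX arrays, by 0.097 on average for WT-TAF3 and 0.0887 for KK-TAF3, and changes are given as the deposited normalization leaves them. The 5 myoblast genes checked, Myod1, Myf5, Pax7, Des and Cdh15, had a summed linear signal of 11800 to 13100 on the differentiated arrays. On the etoposide arrays it was 15100 to 17800, while Myod1 alone had lower means after etoposide than after differentiation in each genotype.

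Platelet-derived growth factors are dimers that bind a pair of receptor tyrosine kinases. The A and C chains act mainly through the alpha receptor, the D chain mainly through the beta receptor, and the B chain through both. The C and D chains are secreted in a latent form with a CUB domain that proteases remove. In muscle, PDGF receptors mark interstitial mesenchymal cells and pericytes, and PDGF-BB drives the division of myoblasts. HGF is secreted as a single chain, cleaved to its active form, and signals through Met, and it is known for waking quiescent satellite cells and for delaying the differentiation of myoblasts. Fewer cells of a type and less RNA per cell cannot be told apart in such bulk samples.

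Because TAF3 belongs to the complex that binds core promoters, promoter windows are shown of Pdgfd and Hgf, the ligands with the largest changes between genotypes, and of Pdgfc, which passed in no comparison. The sequences are those of RefSeq on GRCm38.p6, which has windows for 6 of the 8 members. The windows of Pdgfb and Pdgfrb were not used here. Each is written 5′ to 3′ on the strand of the gene and ends at the base before the start of the gene, with capitals for a TATAAA motif in Pdgfd and a CArG box in Pdgfc.
Pdgfd, chr9:6168236-6168362, plus strand: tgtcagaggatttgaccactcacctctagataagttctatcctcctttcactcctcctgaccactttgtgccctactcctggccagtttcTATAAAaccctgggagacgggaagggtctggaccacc
Hgf, chr5:16553245-16553494, plus strand: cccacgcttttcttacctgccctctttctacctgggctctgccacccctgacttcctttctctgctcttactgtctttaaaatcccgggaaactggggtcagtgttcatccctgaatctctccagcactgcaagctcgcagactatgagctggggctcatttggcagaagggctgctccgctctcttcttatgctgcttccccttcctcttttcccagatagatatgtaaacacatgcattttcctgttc
Pdgfc, chr3:81036166-81036415, plus strand: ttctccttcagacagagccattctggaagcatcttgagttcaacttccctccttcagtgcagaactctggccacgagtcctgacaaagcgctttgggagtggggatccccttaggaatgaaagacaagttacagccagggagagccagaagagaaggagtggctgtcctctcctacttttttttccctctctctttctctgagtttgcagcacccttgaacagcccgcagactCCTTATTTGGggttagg
Both strands of the 250 bases before each listed start were searched for the TATA motif TATAAA, the AP-1 motif TGANTCA, the E-box CAGCTG and the CArG box, motifs chosen with these windows in view. TATAAA was found in the window of Pdgfd, 160 bases before the listed start and 37 bases before the start of the gene as annotated. It lay anywhere in 12.4% of all 32851 windows. The CArG box lay 17 bases before the start of Pdgfc, and 1.47% of windows hold one. TGANTCA was found for Met alone among the members with a window, against 6.75% of all windows, and lies 54 bases before the listed start, inside the gene as annotated. CAGCTG, in 13.0% of all windows, was in none of the members' windows, and the windows of Hgf, Pdgfa and Pdgfra held none of the 4 motifs.

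Between genotypes, only Pdgfd, Hgf and Pdgfb of the 8 members passed the threshold, a limma adjusted p under 0.05 and a difference of more than 1.4-fold. Values are log2 RMA signals, and a change is a difference of group means on that scale. Comparing KK-TAF3 with WT-TAF3 after etoposide, both with sh-PIP4K2B, 1 member was higher and none lower, where 0.341% of all genes were higher. After differentiation 2 members were higher and none lower, beside 0.301% of all genes, and this count was known when the family was chosen. The medians over the 8 members were 0.051 and 0.15 in these comparisons, against -0.0097 and 0.018 over all genes.

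Depletion of PIP4K2B in WT-TAF3 cells left 1 member higher after etoposide, where 0.321% of all genes were higher. After differentiation no member passed with limma, where 1.06% of all genes did. At an unadjusted limma p under 0.05 there were 3 members, and the share of all genes at that limit is not given here. The medians were -0.022 and -0.099, against 0.024 and -0.024 over all genes. The 3 WT-TAF3 sh-PIP4K2B arrays of a treatment enter both the KK-TAF3 comparison and the depletion comparison, and with opposite signs. KK-TAF3 sh-PIP4K2B cells against WT-TAF3 shX cells, which leave those arrays out, had 3 members higher in each treatment, where 0.792% of all genes were higher after etoposide and 0.823% after differentiation. After differentiation these were Pdgfb, Pdgfd and Hgf, and the values of Pdgfd and Hgf on those KK-TAF3 arrays were known when the family was chosen. In that comparison the medians of the members were 0.030 after etoposide and 0.076 after differentiation, against 0.016 and -0.0009 over all genes.

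**Figure D1:**
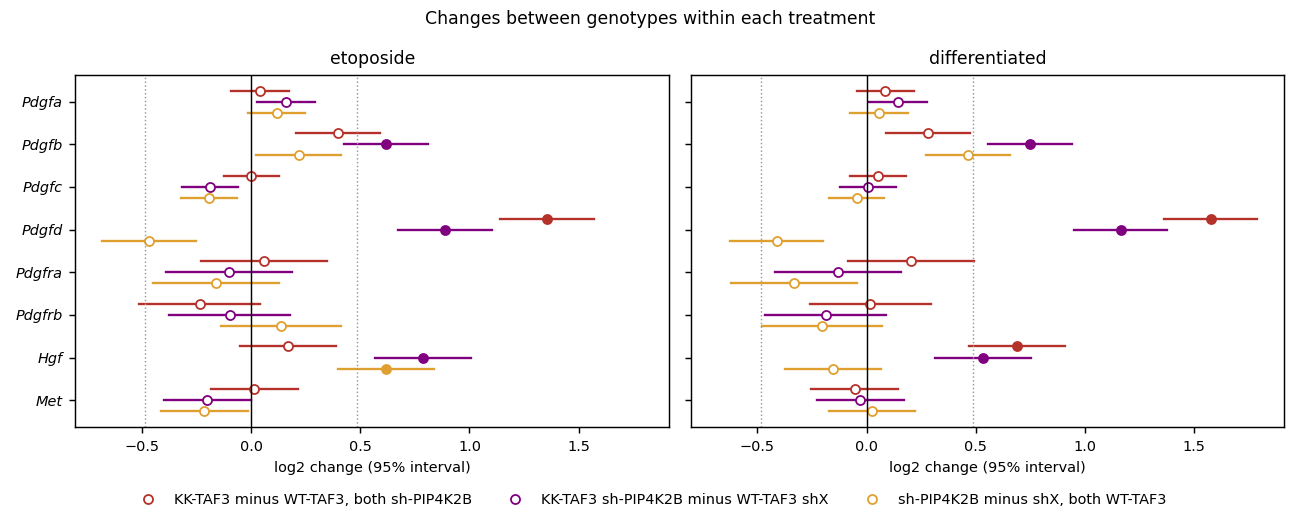
Changes of the 8 members between genotypes after etoposide (left) and differentiation (right), as log2 differences with 95% intervals. Filled points passed the threshold and dotted lines mark 1.4-fold, and the filled points are Pdgfd, Hgf and Pdgfb.

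Pdgfd, the ligand of the beta receptor, was higher in KK-TAF3 cells than in either WT-TAF3 genotype in both treatments. After etoposide its log2 signal was 7.99, 8.37 and 8.35 in KK-TAF3 sh-PIP4K2B cells, 6.84, 6.79 and 7.02 in WT-TAF3 sh-PIP4K2B cells and 7.36, 7.22 and 7.46 in WT-TAF3 shX cells. After differentiation it was 8.43, 8.51 and 8.32 in KK-TAF3 sh-PIP4K2B cells, 6.71, 6.98 and 6.85 in WT-TAF3 sh-PIP4K2B cells and 7.20, 7.31 and 7.27 in WT-TAF3 shX cells. The 3 genotypes thus fell into separate ranges in both treatments, with WT-TAF3 sh-PIP4K2B lowest.

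After etoposide Pdgfd rose in KK-TAF3 cells over WT-TAF3 sh-PIP4K2B cells by 1.35 (2.56-fold, SE 0.10, adjusted p = 6.45e-07), and the arrays of the 2 groups did not overlap, which held for 10.8% of all genes in either direction. After differentiation the difference was 1.58 (2.98-fold, SE 0.10), without overlap, as for 21.0% of all genes. The effect of KK-TAF3 on Pdgfd differed between etoposide and differentiation by -0.22 (95% interval -0.52 to 0.083, adjusted p = 0.794). Against WT-TAF3 shX cells Pdgfd rose by 0.89 after etoposide (SE 0.10, adjusted p = 4.12e-05), and the difference after differentiation, which uses the differentiated KK-TAF3 arrays already described, was 1.16 (SE 0.10).

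Depletion of PIP4K2B in WT-TAF3 cells left Pdgfd lower on every array, in both treatments, without reaching 1.4-fold. The change was -0.47 after etoposide (SE 0.10, adjusted p = 0.0137), where arrays of the groups did not overlap for 15.0% of all genes. It was -0.41 after differentiation (SE 0.10, adjusted p = 0.0272), where this held for 44.5% of all genes. The differentiated WT-TAF3 sh-PIP4K2B arrays used there also enter the Pdgfd difference known when the family was chosen, so that p-value is not independent of the choice. After etoposide the change passed at -0.51 when each array was centred on its median (adjusted p = 0.0158), at -0.53 without WT-TAF3 shX replicate 2 (adjusted p = 0.0194) and at -0.53 without WT-TAF3 sh-PIP4K2B replicate 3 (adjusted p = 0.0148). By QRT-PCR after etoposide, the paper reports lower Pdgf, with no chain named, on depletion of WT-TAF3 cells. It adds that KK-TAF3 cells suppressed this decrease. The paper introduces QRT-PCR as a way to verify its analysis of these arrays, so the genes it names may have been chosen from them. The p-values of Pdgfd after etoposide may therefore not be independent of that report. Between the treatments Pdgfd overlapped within each genotype, with changes of -0.18, 0.037 and 0.091 for etoposide against differentiation in KK-TAF3 sh-PIP4K2B, WT-TAF3 sh-PIP4K2B and WT-TAF3 shX cells and adjusted p of 0.212, 0.801 and 0.546.

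**Figure D2:**
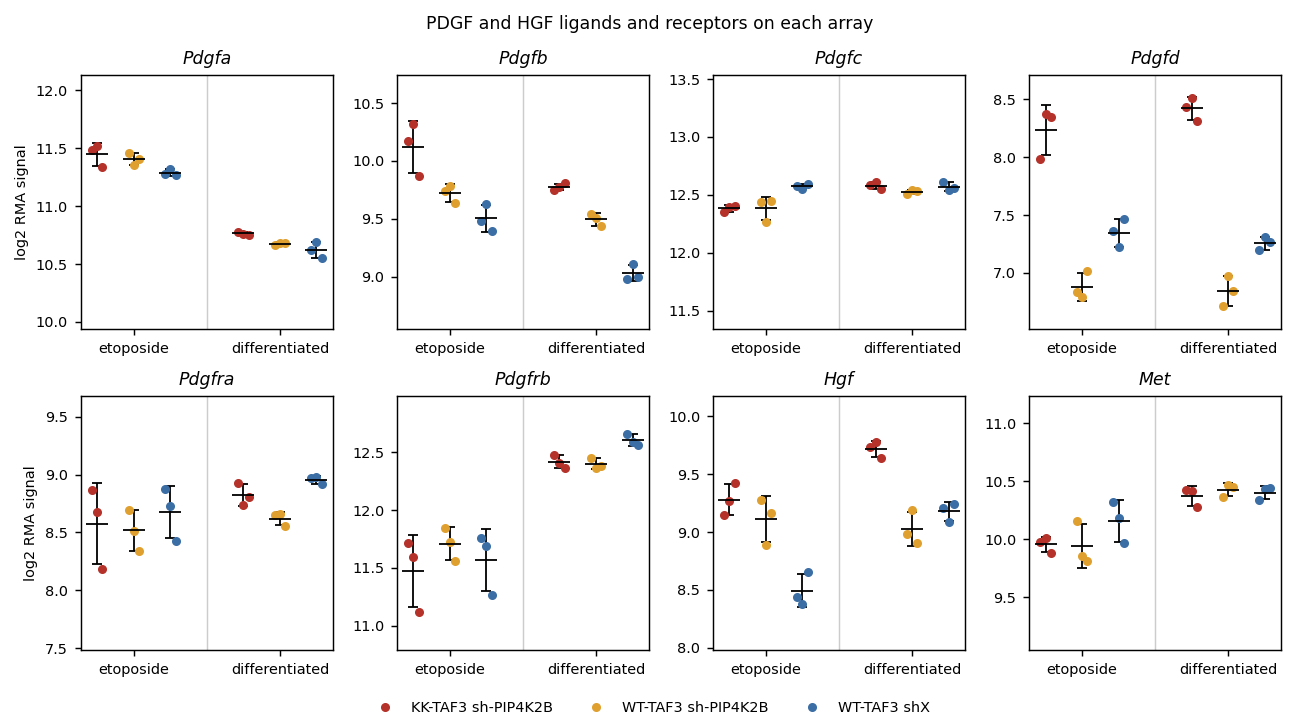
Log2 RMA signal of each member on each of the 18 arrays, by treatment and genotype, with the mean and SD of 3 arrays. Every panel spans the same log2 range about its own middle, and the KK-TAF3 arrays stand above both other genotypes in both treatments for Pdgfd, while Pdgfa and Pdgfrb separate the treatments.

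Pdgfb, the chain that binds both receptors, was highest in KK-TAF3 cells, intermediate in WT-TAF3 sh-PIP4K2B cells and lowest in WT-TAF3 shX cells. After etoposide its signal was 10.17, 10.32 and 9.87 in KK-TAF3 sh-PIP4K2B cells, 9.74, 9.78 and 9.64 in WT-TAF3 sh-PIP4K2B cells and 9.48, 9.63 and 9.40 in WT-TAF3 shX cells. After differentiation it was 9.75, 9.77 and 9.81 in KK-TAF3 sh-PIP4K2B cells, 9.54, 9.51 and 9.43 in WT-TAF3 sh-PIP4K2B cells and 8.98, 9.11 and 9.00 in WT-TAF3 shX cells. No array of a genotype overlapped those of the next in either treatment, though after etoposide the WT-TAF3 genotypes came as near as 9.64 and 9.63. Of all genes 10.8% did not overlap between KK-TAF3 and WT-TAF3 sh-PIP4K2B cells after etoposide, and 21.0% after differentiation. Between WT-TAF3 sh-PIP4K2B and shX cells these shares were 15.0% and 44.5%. The rise in KK-TAF3 sh-PIP4K2B over WT-TAF3 shX cells was 0.62 after etoposide (1.53-fold, SE 0.09, adjusted p = 0.000429) and 0.75 after differentiation (1.68-fold, SE 0.09, adjusted p = 7.57e-05), where arrays did not overlap for 14.2% and 46.0% of all genes.

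Neither step on its own passed for Pdgfb. KK-TAF3 against WT-TAF3 gave 0.40 after etoposide (SE 0.09, adjusted p = 0.0472), under 1.4-fold, and 0.28 after differentiation (SE 0.09, adjusted p = 0.261). The etoposide value became 0.52 (adjusted p = 0.00358) and passed without KK-TAF3 replicate 3, the lowest of that group. Depletion gave 0.22 after etoposide (SE 0.09, adjusted p = 0.243) and 0.47 after differentiation (SE 0.09, adjusted p = 0.00699), again under 1.4-fold. The change after differentiation passed at 0.56 with each array centred on its median (adjusted p = 0.00325), at 0.50 without WT-TAF3 sh-PIP4K2B replicate 3 (adjusted p = 0.0203) and at 0.51 without WT-TAF3 shX replicate 2 (adjusted p = 0.018).

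Pdgfa and Pdgfc, the ligands of the alpha receptor, did not pass the threshold between any pair of genotypes. Pdgfa was 11.49, 11.52 and 11.34 in KK-TAF3 sh-PIP4K2B cells, 11.46, 11.35 and 11.41 in WT-TAF3 sh-PIP4K2B cells and 11.28, 11.32 and 11.27 in WT-TAF3 shX cells after etoposide. After differentiation it was 10.78, 10.76 and 10.75 in KK-TAF3 sh-PIP4K2B cells, 10.67, 10.68 and 10.68 in WT-TAF3 sh-PIP4K2B cells and 10.62, 10.69 and 10.55 in WT-TAF3 shX cells. Every etoposide array lay above every differentiated one, while the genotypes lay close together, with changes of 0.041 to 0.16 over the 6 genotype comparisons and adjusted p from 0.138 to 0.936. Pdgfc lay between 12.26 and 12.61 on all 18 arrays. Its largest genotype changes were -0.19 for depletion (95% interval -0.32 to -0.064, adjusted p = 0.109) and -0.19 for KK-TAF3 sh-PIP4K2B over WT-TAF3 shX (95% interval -0.32 to -0.062, adjusted p = 0.123), both after etoposide.

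Pdgfrb differed between the treatments, and neither PDGF receptor passed between genotypes. Pdgfrb, the receptor of the B and D chains, was 11.71, 11.59 and 11.12 in KK-TAF3 sh-PIP4K2B cells, 11.84, 11.72 and 11.56 in WT-TAF3 sh-PIP4K2B cells and 11.76, 11.69 and 11.26 in WT-TAF3 shX cells after etoposide. After differentiation it was 12.48, 12.40 and 12.37 in KK-TAF3 sh-PIP4K2B cells, 12.45, 12.36 and 12.38 in WT-TAF3 sh-PIP4K2B cells and 12.66, 12.59 and 12.56 in WT-TAF3 shX cells. The lowest differentiated array stood above the highest etoposide array, and replicate 3 was the lowest of each etoposide group. The genotype changes of Pdgfrb lay between -0.24 and 0.14, with adjusted p from 0.315 to 0.998. Pdgfra, the receptor of the A and C chains and a mark of mesenchymal progenitors, ranged from 8.19 to 8.98 over all arrays, and its groups overlapped their neighbours throughout the order of the means. Its largest genotype change was a depletion value of -0.33 after differentiation (95% interval -0.62 to -0.045, adjusted p = 0.128), where 8.65, 8.66 and 8.55 in WT-TAF3 sh-PIP4K2B cells stood below 8.97, 8.98 and 8.92 in WT-TAF3 shX cells. Arrays of these 2 groups did not overlap for 44.5% of all genes.

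Hgf was the second ligand that differed between genotypes, in another order than Pdgfd. After etoposide it was 9.15, 9.27 and 9.42 in KK-TAF3 sh-PIP4K2B cells, 9.28, 8.89 and 9.16 in WT-TAF3 sh-PIP4K2B cells and 8.44, 8.38 and 8.65 in WT-TAF3 shX cells. After differentiation it was 9.73, 9.77 and 9.64 in KK-TAF3 sh-PIP4K2B cells, 8.99, 9.19 and 8.90 in WT-TAF3 sh-PIP4K2B cells and 9.20, 9.09 and 9.25 in WT-TAF3 shX cells. After etoposide the shX arrays stood apart as low, with the sh-PIP4K2B genotypes overlapping. Of all genes 15.0% did not overlap there between WT-TAF3 sh-PIP4K2B and shX cells, and 14.2% between KK-TAF3 sh-PIP4K2B and shX cells. After differentiation the KK-TAF3 arrays stood apart as high, with the WT-TAF3 genotypes overlapping. Of all genes 21.0% did not overlap there between KK-TAF3 and WT-TAF3 sh-PIP4K2B cells, and 46.0% between KK-TAF3 sh-PIP4K2B and shX cells. In the order of the 6 means the differentiated KK-TAF3 cells were first and the etoposide-treated shX cells last, and the 4 groups between them overlapped their neighbours.

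On depletion of PIP4K2B, Hgf rose in etoposide-treated WT-TAF3 cells by 0.62 (1.54-fold, SE 0.10, adjusted p = 0.00188), whereas the value after differentiation was -0.15 (SE 0.10, adjusted p = 0.345). The difference between those effects was 0.77 (SE 0.15, limma adjusted p = 0.00902). Hgf was the 1 member higher in that test, beside 1.95% of all genes. The test uses the differentiated WT-TAF3 sh-PIP4K2B arrays, which also enter the Hgf difference known when the family was chosen. Its p-value is therefore not independent of that choice. KK-TAF3 differed from WT-TAF3 sh-PIP4K2B in Hgf by 0.17 after etoposide (SE 0.10, adjusted p = 0.439) and 0.69 after differentiation (1.61-fold, SE 0.10). The difference between these, -0.52 (95% interval -0.83 to -0.21), had an adjusted p = 0.406. No member passed that test with limma, where 0.15% of all genes did. Hgf was the 1 member with an unadjusted p under 0.05, a limit at which the share of all genes is not given here. Against WT-TAF3 shX cells Hgf rose in KK-TAF3 sh-PIP4K2B cells by 0.79 after etoposide (SE 0.10, adjusted p = 0.000134). The difference after differentiation, which uses the differentiated KK-TAF3 arrays whose Hgf signal was known when the family was chosen, was 0.53 (SE 0.10), and 0.43 with the array median as a covariate, where it no longer passed.

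Met, the receptor of HGF, passed in none of the 6 genotype comparisons. It was 9.98, 10.01 and 9.88 in KK-TAF3 sh-PIP4K2B cells, 10.16, 9.86 and 9.81 in WT-TAF3 sh-PIP4K2B cells and 10.32, 10.18 and 9.97 in WT-TAF3 shX cells after etoposide. After differentiation it was 10.43, 10.42 and 10.28 in KK-TAF3 sh-PIP4K2B cells, 10.36, 10.47 and 10.45 in WT-TAF3 sh-PIP4K2B cells and 10.34, 10.43 and 10.44 in WT-TAF3 shX cells. Genotypes overlapped in each comparison of 1 treatment, with changes between -0.21 and 0.025 and adjusted p from 0.265 to 0.995.

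Etoposide-treated cells, set against differentiated cells of the same genotype, were higher in Pdgfa and lower in Pdgfrb in all 3 genotypes. Of the 8 members 1 was higher and 1 lower in KK-TAF3 sh-PIP4K2B cells, where 8.33% of all genes passed. In WT-TAF3 sh-PIP4K2B cells 1 was higher and 2 lower, where 9.95% passed, and in WT-TAF3 shX cells also 1 higher and 2 lower, where 7.63% passed. The medians of the members were -0.22 in KK-TAF3 sh-PIP4K2B, -0.033 in WT-TAF3 sh-PIP4K2B and -0.12 in WT-TAF3 shX cells, against 0.032, 0.066 and -0.052 over all genes. The array medians were higher after etoposide by 0.065 in KK-TAF3 sh-PIP4K2B cells and 0.11 in WT-TAF3 sh-PIP4K2B cells, and differed by -0.033 in WT-TAF3 shX cells.

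Pdgfa rose by 0.68, 0.73 and 0.67 in KK-TAF3 sh-PIP4K2B, WT-TAF3 sh-PIP4K2B and WT-TAF3 shX cells (SE 0.06 each, adjusted p = 1.87e-07, 6.82e-08 and 2.41e-07), and its arrays did not overlap, which held for 40.4%, 42.7% and 44.2% of all genes. Pdgfrb fell, with changes of -0.94 in KK-TAF3 sh-PIP4K2B, -0.69 in WT-TAF3 sh-PIP4K2B and -1.03 in WT-TAF3 shX cells (SE 0.13 each, adjusted p = 2.67e-05, 0.000531 and 9.39e-06). A ligand of the alpha receptor and the beta receptor thus moved in opposite directions, and Pdgfra and Pdgfc did not pass. In KK-TAF3 sh-PIP4K2B, WT-TAF3 sh-PIP4K2B and WT-TAF3 shX cells Pdgfra had changes of -0.25, -0.10 and -0.28 (adjusted p = 0.211, 0.58 and 0.163), and Pdgfc had -0.19, -0.14 and 0.0024 (adjusted p = 0.0238, 0.0737 and 0.983). Pdgfb was higher on every etoposide array than on the differentiated arrays of its genotype, by 0.34 in KK-TAF3 sh-PIP4K2B, 0.23 in WT-TAF3 sh-PIP4K2B and 0.47 in WT-TAF3 shX cells (adjusted p = 0.00939, 0.0636 and 0.000747), each under 1.4-fold. The WT-TAF3 shX value passed when arrays were centred (0.51, adjusted p = 0.0011), without WT-TAF3 shX differentiated replicate 2 (0.51, adjusted p = 0.00178), and without WT-TAF3 shX etoposide replicate 1 (0.49, adjusted p = 0.00255) or replicate 3 (0.53, adjusted p = 0.00111).

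Hgf and Met each passed in 1 genotype only in this comparison. Hgf fell in WT-TAF3 shX cells, with a change of -0.69 (SE 0.10, adjusted p = 6.5e-05), and gave -0.43 in KK-TAF3 sh-PIP4K2B cells (SE 0.10, adjusted p = 0.00438, under 1.4-fold) and 0.083 in WT-TAF3 sh-PIP4K2B cells (SE 0.10, adjusted p = 0.555). The value in KK-TAF3 sh-PIP4K2B cells passed at -0.50 with each array centred (adjusted p = 0.00374) and at -0.51 without etoposide replicate 3 (adjusted p = 0.00355). That value uses the differentiated KK-TAF3 arrays, whose Hgf signal was known when the family was chosen. Met gave -0.42, -0.49 and -0.25 in KK-TAF3 sh-PIP4K2B, WT-TAF3 sh-PIP4K2B and WT-TAF3 shX cells (SE 0.09 each, adjusted p = 0.00282, 0.00064 and 0.0686) and passed in WT-TAF3 sh-PIP4K2B cells only, at the edge of 1.4-fold. There it no longer passed with the array median as a covariate (-0.24, adjusted p = 0.043), nor without differentiated replicate 2 (-0.47) or 3 (-0.47), nor without etoposide replicate 2 (-0.44) or 3 (-0.42). The difference of the depletion effects, which is also the difference between the Hgf changes of WT-TAF3 sh-PIP4K2B and shX cells here, is the 0.77 given above, while for Met it was -0.24 (adjusted p = 0.217).

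**Figure D3:**
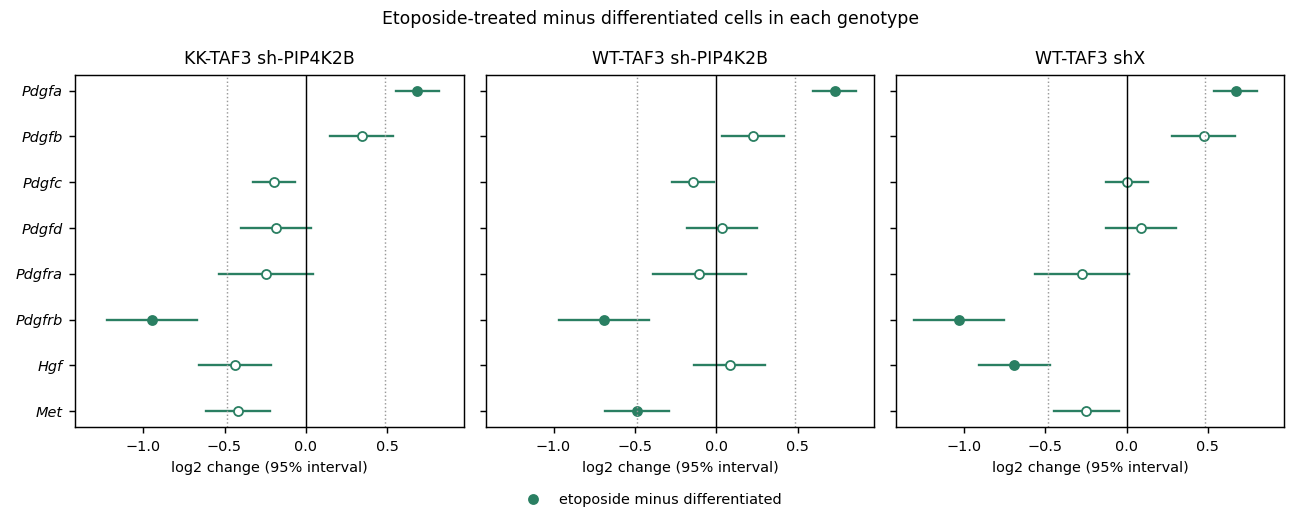
Log2 change of each member between etoposide-treated and differentiated cells in each genotype, with 95% intervals. Filled points passed the threshold and dotted lines mark 1.4-fold, and Pdgfa is to the right and Pdgfrb to the left in all 3 genotypes.

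Of 112 measured genes from 8 lists of the pathway, 0 or 1 passed in each of the 4 main genotype comparisons, where few genes passed in all. The lists hold the VEGF relatives of PDGF, other class III receptor kinases, relatives of HGF and partners of Met, the proteases that activate the ligands, receptor adaptors and effectors, feedback inhibitors, immediate early genes and other growth factors of myoblasts. After etoposide 1 was higher in KK-TAF3 than in WT-TAF3 cells and none lower, and after differentiation none passed in either direction. Depletion left 1 lower after etoposide and 1 higher after differentiation. A count of 1 is 0.893% of the lists, and of all genes 0.406% and 0.517% passed for KK-TAF3 against WT-TAF3 after etoposide and differentiation and 0.868% and 1.06% for depletion, in either direction. Their medians in these 4 comparisons lay between -0.036 and 0.023, against -0.024 to 0.024 over all genes.

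The 1 gene higher in KK-TAF3 cells after etoposide was Itga6, the integrin alpha subunit whose partner beta 4 binds Met, with 11.12 ± 0.12 in KK-TAF3 and 10.51 ± 0.21 in WT-TAF3 sh-PIP4K2B cells (SD, n = 3 each) and a change of 0.61 (SE 0.10, adjusted p = 0.00336). Spry2, a feedback inhibitor that receptor kinases induce, was 9.05 ± 0.19 in WT-TAF3 sh-PIP4K2B and 9.66 ± 0.08 in WT-TAF3 shX cells after etoposide and fell by 0.61 (SE 0.08, adjusted p = 0.000292). Pik3r3, a regulatory subunit of phosphoinositide 3-kinase, was 10.36 ± 0.12 in WT-TAF3 sh-PIP4K2B and 9.71 ± 0.13 in WT-TAF3 shX cells after differentiation and rose by 0.64 (SE 0.09, adjusted p = 0.000265). Among the adaptors, feedback genes and immediate early genes of the lists, Spry2 and Pik3r3 were thus the only 2 to pass in these comparisons. With so few genes passing in all, these counts do not set depletion apart from KK-TAF3 against WT-TAF3.

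KK-TAF3 sh-PIP4K2B set against WT-TAF3 shX gave none after etoposide, where 1.15% of all genes passed, and 3 after differentiation, which is 2.68% of the lists beside 1.26% of all genes. Vegfc, a ligand of the VEGF receptors and a structural relative of PDGF, rose by 0.68 (SE 0.10, adjusted p = 0.000496) and Fosl1, an immediate early AP-1 subunit, by 0.54 (SE 0.06, adjusted p = 3.85e-05). Igf1, a growth factor that promotes differentiation of myoblasts, fell by 0.58 (SE 0.06, adjusted p = 2.01e-05).

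**Figure D4:**
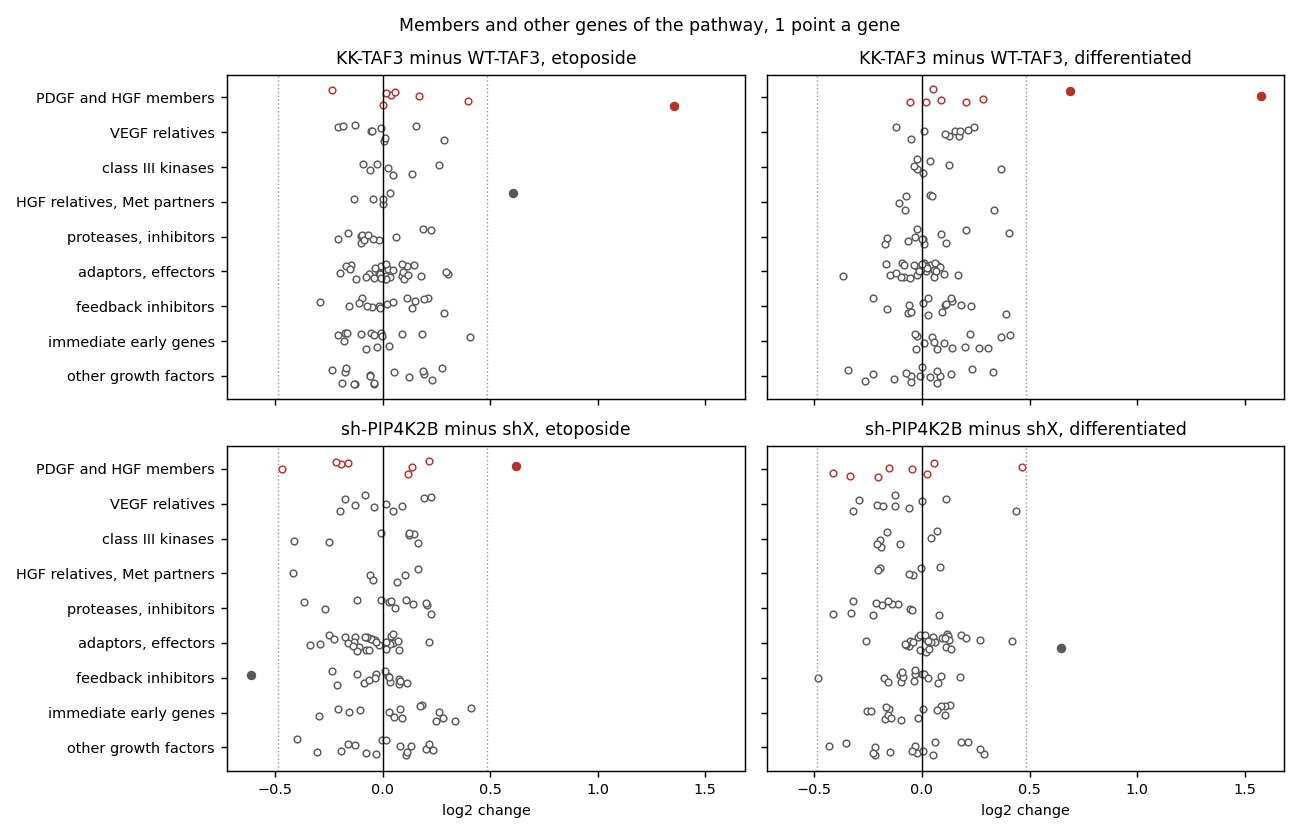
Log2 changes of the 8 members (top row of each panel) and of 112 other genes in 8 lists of the pathway, 1 point a gene with random vertical scatter. Filled points passed the threshold, dotted lines mark 1.4-fold, and Pdgfd stands farthest to the right in both KK-TAF3 panels.

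Between the treatments more of the list genes passed, as did more of all genes. Of the 112 genes 8 were higher and 23 lower after etoposide than after differentiation in KK-TAF3 sh-PIP4K2B cells, 9 and 21 in WT-TAF3 sh-PIP4K2B cells and 8 and 13 in WT-TAF3 shX cells. The lower genes are 20.5%, 18.8% and 11.6% of the lists in these genotypes, beside 4.81%, 6.3% and 2.92% of all genes, and the higher genes 7.14%, 8.04% and 7.14%, beside 3.52%, 3.64% and 4.71%. With each array centred on its median the list counts of higher and lower genes were 7 and 26, 5 and 25, and 8 and 13. With the same centring 2.55% and 6.04%, 2.02% and 9.73%, and 5.69% and 2.61% of all genes were higher and lower. Growth factor receptors were among the lower genes. The EGF receptor gene Egfr gave -1.75, -1.92 and -1.64 and the IGF receptor gene Igf1r -1.51, -1.61 and -1.27 in KK-TAF3 sh-PIP4K2B, WT-TAF3 sh-PIP4K2B and WT-TAF3 shX cells, all past the threshold. So were the co-receptor genes Nrp1, with -1.22, -1.08 and -1.16, and Nrp2, with -1.04, -0.98 and -0.95. Lrig1, which lowers receptor kinase levels, had -1.32, -1.33 and -1.09. In the other direction, Plaur, the receptor of urokinase, a protease that can activate HGF and PDGF-D, rose by 1.39, 1.41 and 1.47, and Fosl1 by 0.80, 1.24 and 0.96. Plau, the urokinase gene, was lower in both sh-PIP4K2B genotypes, with -0.53 in KK-TAF3 and -0.64 in WT-TAF3 cells.

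Markers of other cell states moved with some of these results. Of 5 myotube genes 4 were lower in differentiated KK-TAF3 cells than in WT-TAF3 sh-PIP4K2B cells, led by the fusion gene Mymk at -1.57 (adjusted p = 6.46e-08), and the summed linear signal of the list was 1530 to 1690 in KK-TAF3 sh-PIP4K2B, 3240 to 3760 in WT-TAF3 sh-PIP4K2B and 2640 to 2750 in WT-TAF3 shX cells. After etoposide none of the 5 passed between genotypes, with sums of 1320 to 1530 in KK-TAF3 sh-PIP4K2B, 1620 to 1890 in WT-TAF3 sh-PIP4K2B and 1580 to 1670 in WT-TAF3 shX cells. The KK-TAF3 sums thus lay below those of both WT-TAF3 genotypes in both treatments, without overlap. Brighter genes weigh more in such a sum, and after etoposide it did not hold for each gene. There Acta1 reached 9.82 in KK-TAF3 cells and went down to 9.79 in shX cells, and Mymk reached 8.02 and went down to 7.95. Of 7 fibroblast genes, 1 was higher and none lower in KK-TAF3 than in WT-TAF3 sh-PIP4K2B cells in each treatment, namely Dcn after etoposide (1.12, adjusted p = 3.26e-08) and Dpt after differentiation (0.55, adjusted p = 0.00825), while the medians of the list were -0.14 and -0.007. Depletion left 2 lower in each treatment, Dcn (-1.53) and Lum (-0.95) after etoposide and Lum (-1.06) and Dpt (-0.71) after differentiation. Lum was also lower in KK-TAF3 sh-PIP4K2B than in WT-TAF3 shX cells, by a change of -0.85 after etoposide and -1.41 after differentiation. The sums of the fibroblast list after etoposide were 8980 to 10800 in KK-TAF3 sh-PIP4K2B, 8550 to 10300 in WT-TAF3 sh-PIP4K2B and 11600 to 13800 in WT-TAF3 shX cells. After differentiation they were 22900 to 23700 in KK-TAF3 sh-PIP4K2B, 21400 to 22900 in WT-TAF3 sh-PIP4K2B and 25400 to 26700 in WT-TAF3 shX cells, so that this list was higher in differentiated cells, as Pdgfrb was. Of 6 pericyte and smooth muscle genes, whose cells carry PDGF receptors, none differed past the threshold between KK-TAF3 and WT-TAF3 sh-PIP4K2B cells. Anpep was lower in KK-TAF3 sh-PIP4K2B than in WT-TAF3 shX cells after etoposide (-0.57, adjusted p = 0.0334), a comparison in which Pdgfb passed, and on depletion after differentiation (-0.50, adjusted p = 0.0462). The sums were 2530 to 3530 in KK-TAF3 sh-PIP4K2B, 3020 to 3730 in WT-TAF3 sh-PIP4K2B and 3250 to 4390 in WT-TAF3 shX cells after etoposide. After differentiation they were 2290 to 2420 in KK-TAF3 sh-PIP4K2B, 2210 to 2230 in WT-TAF3 sh-PIP4K2B and 2710 to 2890 in WT-TAF3 shX cells. In each genotype this sum was thus higher after etoposide, the other way from Pdgfrb, though brighter genes weigh more in it. The median change of the list was 0.16 in KK-TAF3 sh-PIP4K2B, 0.13 in WT-TAF3 sh-PIP4K2B and -0.080 in WT-TAF3 shX cells. Over all genes the medians were 0.032, 0.066 and -0.052, so the list as a whole was not higher in shX cells. Of the genes of the list 2, 2 and 1 passed as higher after etoposide in these genotypes and none as lower, where 3.52%, 3.64% and 4.71% of all genes were higher. The part of these cell states in the changes of the members was not tested.

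For each of the 3 members that passed between genotypes, the 3 genes with the most similar pattern were sought among 716 genes by Pearson's r over the 18 arrays after the mean of each treatment was taken away. The arrays share 6 groups, so r is a description. The genes nearest to Pdgfd were Mctp1, a membrane protein with C2 domains, with r of 0.951, the amino acid transporter gene Slc43a1 with 0.94 and Renbp, an epimerase of amino sugars, with 0.933. Mctp1 and Renbp passed as higher in KK-TAF3 than in WT-TAF3 sh-PIP4K2B cells in both treatments and as lower on depletion after etoposide, while Slc43a1 passed in differentiated KK-TAF3 cells alone of these 4 comparisons. The nearest to Pdgfb were the Wnt ligand gene Wnt7b (r of 0.953), Tafa5 (0.94) and Mfsd6 (0.894), of which Wnt7b alone passed in 1 of these 4 comparisons, with 0.78 on depletion after differentiation. For Hgf the values of r were lower, with 0.881 for Cdca7, 0.872 for the receptor gene Calcrl and 0.858 for Id1, an inhibitor of basic helix-loop-helix factors. Calcrl passed with 0.65 in differentiated KK-TAF3 against WT-TAF3 sh-PIP4K2B cells and Cdca7 with 0.49 on depletion after etoposide.

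**Figure D5:**
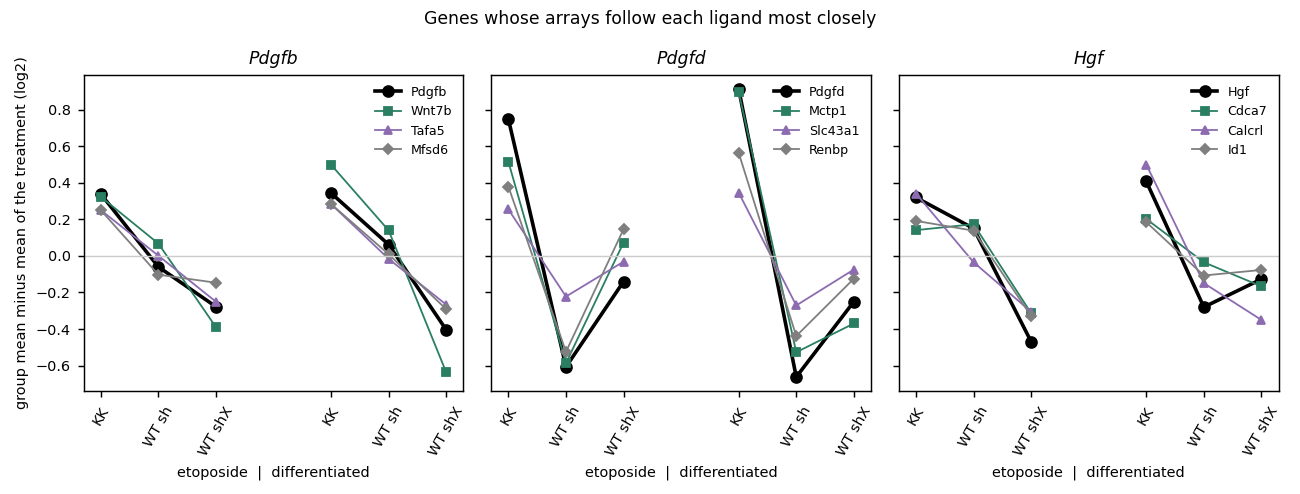
Group means, less the mean of the treatment (log2), for Pdgfb, Pdgfd and Hgf (black) and the 3 genes nearest to each. KK, WT sh and WT shX stand for KK-TAF3 sh-PIP4K2B, WT-TAF3 sh-PIP4K2B and WT-TAF3 shX, and the Pdgfd group has its lowest point at WT-TAF3 sh-PIP4K2B in both treatments.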

How the data were processed

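RNA of the 18 samples was hybridised to Affymetrix mouse gene arrays. The authors ran RMA in Affymetrix Expression Console to make the deposited values, which are log2 signals, and the version of the program is not given in the sources used here. RMA corrects background, normalizes by quantiles and combines the probes of each transcript cluster. These values were used as deposited. Genes were named through the platform annotation of the deposited identifiers, which belongs to an earlier chip generation than the one the paper names. Of 35556 transcript clusters, 21789 have 1 symbol, 1621 several and 12146 are not listed there. The brightest cluster was kept for the 999 genes with more than 1, which gave 19938 genes.

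One linear model of the 6 group means was fitted to all genes in R 4.3.3 with limma 3.58.1 (12 residual degrees of freedom and 6.05 from the prior). A gene passed at a Benjamini-Hochberg adjusted p under 0.05 over all 19938 genes with a change above 1.4-fold, the limits of the study, whose text names no test or adjustment. Precision is limited by the number of arrays. The script was tested on simulated data. Members and lists were chosen with earlier results of these data known. Of 121 list genes 112 were measured, and of 39 markers 36. Besides the members, Pip4k2b and Taf3, list genes past the threshold were named, up to 4 per genotype comparison and 2 per treatment comparison, with the 3 genes most similar to each member that passed between genotypes, leaving out predicted and small RNA genes and genes whose centred group means spanned under 1.4-fold. Taf3, whose probes may also read the introduced transcript, changed by -0.17 to 0.06 between genotypes, with none past the threshold. Same-numbered arrays deviated together (every r above 0.1) only for WT-TAF3 sh-PIP4K2B and shX cells after etoposide, with r of 0.332 to 0.559, which pairs those groups by the data and not by the labels. Alternatives were leaving out each array, a replicate block, also one within each treatment added after seeing the data, median centring, the array median as a covariate, a trended and robust prior, fits on only the arrays compared, testing every transcript cluster or only genes above the median signal, an unadjusted p and no limit on the fold. Tables and figures used matplotlib 3.10.9, numpy 2.4.6 and pandas 2.3.3 under Python 3.11.15.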

Additional observations from a re-analysis of the deposited data

Results flagged for a closer look

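For 8 genes of the pathway the effect of PIP4K2B depletion differed between the treatments, by a limma test of the difference of the effects (etoposide minus differentiated), which 4.02% of all genes passed. Hgf had the largest difference of these, 0.77 (adjusted p = 0.00902), from effects of 0.62 after etoposide and -0.15 after differentiation. It kept passing in all 22 alternatives, with values between 0.63 and 0.94 and adjusted p from 0.00382 to 0.0308. All of these fits use differentiated WT-TAF3 sh-PIP4K2B arrays, which also enter the Hgf difference known when the family was chosen. They are therefore not independent of that choice. Of the 112 list genes 6 were higher and 1 lower in the test of the difference of the effects, where 1.95% and 2.07% of all genes were. Pcsk6 and Hpn, proteases of the lists, differed by 0.52 (adjusted p = 0.0486) and 0.53 (adjusted p = 0.0481). The immediate early genes Fos and Egr3 differed by 0.54 (adjusted p = 0.0211) and 0.49 (adjusted p = 0.0197). Egf, the epidermal growth factor gene, differed by 0.54 (adjusted p = 0.0435) and Flt4, a VEGF receptor gene, by 0.51 (adjusted p = 0.0309). Yes1, a Src family kinase gene, had the opposite sign, -0.50 (adjusted p = 0.0476). None of these 7 list genes passed for depletion in either treatment alone. With each array centred on its median Yes1 (-0.64) was the only one of the 7 to pass, and the counts were 0 higher and 5 lower of the 112, beside 0.331% higher and 6.47% lower of all genes. None of the 7 passed with the array median as a covariate or without WT-TAF3 shX differentiated replicate 1, WT-TAF3 shX etoposide replicate 1, WT-TAF3 sh-PIP4K2B differentiated replicate 2 or WT-TAF3 sh-PIP4K2B etoposide replicate 2.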

How the results depend on the processing

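Of 1469 changes of single members under the alternatives, 1440 kept their side of the threshold, 6 no longer passed and 23 newly passed. Among the 1440 are 42 values that did not pass and changed sign, and none that passed changed sign. After etoposide the rise of Pdgfd in KK-TAF3 cells over each WT-TAF3 genotype passed in all 15 alternatives that tested it, with adjusted p from 1.03e-07 to 0.00787. Without the fold limit the counts of members past the threshold were 2 for KK-TAF3 against WT-TAF3 after etoposide, 2 for depletion after etoposide, 2 for depletion after differentiation and 6 for etoposide against differentiation in KK-TAF3 sh-PIP4K2B cells. More of all genes pass without that limit too, and their share is not given here. The shares given above hold for the 1.4-fold rule and cannot be set beside these counts. Among genes above the median signal, which Pdgfd is not, the counts for KK-TAF3 against WT-TAF3 were 0 after etoposide and 1 after differentiation. With each array centred on its median, depletion had 2 members after etoposide and 1 after differentiation. With unadjusted p, 1 member, Hgf, passed in the difference between treatments of the KK-TAF3 effect, with no share of all genes at that limit given here. Leaving out 1 array at a time gave 1 to 2 members for KK-TAF3 against WT-TAF3 after etoposide (Pdgfb joined without KK-TAF3 replicate 3), 1 to 2 for depletion after etoposide and 0 to 1 after differentiation (the arrays are named with Pdgfd and Pdgfb above), 2 to 3 for the treatments in each sh-PIP4K2B genotype and 3 to 4 in WT-TAF3 shX cells. Same-numbered arrays correlated in their deviations from the group means with r from -0.291 to 0.593 over 18 pairs, above 0.1 in 8. They were above 0.1 in all 3 pairs of WT-TAF3 sh-PIP4K2B with shX arrays after etoposide (0.332 to 0.559) and in 2 of 3 pairs of KK-TAF3 sh-PIP4K2B with shX arrays there, and in 0 or 1 of 3 for the other group pairs. With the replicate block the counts were 1 and 2 for KK-TAF3 against WT-TAF3 after etoposide and differentiation, 1 and 0 for depletion and 3 and 3 for KK-TAF3 sh-PIP4K2B over WT-TAF3 shX, with the same members past the threshold as without it, and a replicate block within each treatment, added after seeing the data, gave the same counts and members. Centring takes 0.11 from every change between the treatments in WT-TAF3 sh-PIP4K2B cells and adds 0.097 to depletion after differentiation. With centring 0.191% of all genes were higher and 0.747% lower for depletion after etoposide, 1.59% and 0.155% for depletion after differentiation and 1.92% and 0.251% for KK-TAF3 sh-PIP4K2B over WT-TAF3 shX after differentiation, against 0.321% and 0.547%, 0.682% and 0.376%, and 0.823% and 0.436% without it. For the values above that passed or failed under an alternative the cause was not tested.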

Other observations

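In each etoposide group replicate 3 had the lowest signal of both PDGF receptors, and the groups spanned 0.68, 0.36 and 0.44 for Pdgfra and 0.59, 0.28 and 0.50 for Pdgfrb in KK-TAF3 sh-PIP4K2B, WT-TAF3 sh-PIP4K2B and WT-TAF3 shX cells. After differentiation they spanned 0.19, 0.10 and 0.058 for Pdgfra and 0.11, 0.088 and 0.096 for Pdgfrb. Met was also lowest on replicate 3 in the 3 etoposide groups, with spans of 0.13, 0.35 and 0.35. Hgf was highest there in KK-TAF3 sh-PIP4K2B and WT-TAF3 shX cells.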
